A study of Mus musculus with 23 samples.

Results

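Transcript usage, the share of a gene's RNA that each of its transcripts takes, was compared between crushed sciatic nerves (SNs) and control SNs of the mouse. Members were the genes with 2 or more listed transcripts at a mean of at least 1 TPM (a transcript's level per length, scaled to a fixed total in each library) over 11 libraries. The rule found 1303 of 43068 listed genes, with 3252 of 105375 listed transcripts. Of these genes, 873 had 2 such transcripts and 430 had 3 or more, up to 9. A gene with only 1 transcript at this level, and most weakly expressed genes, were outside the comparison, and 6048 genes had at least 1 transcript at 1 TPM.

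The 11 libraries of total RNA came from SNs of wild-type C57BL/6J male mice aged 2 months, out of 23 libraries in the series. Crushed nerves (n = 4) were taken 3 days after the crush (3 dpc), contralateral nerves (n = 4) came from the uninjured side of mice crushed on the other side and were also taken at 3 dpc, and uncrushed nerves (n = 3) came from mice with a surgery control and no crush. The contralateral and uncrushed nerves together made up the 7 control libraries. The labels do not tie a crushed nerve to a contralateral nerve of the same animal, and the main test took the 11 libraries as independent. Total counts were 9512316 to 12072033 in crushed, 9908994 to 12806066 in contralateral and 6617716 to 12252564 in uncrushed nerves. A 5S ribosomal RNA transcript took 61.4 to 71.8% of the summed TPM but 0.919 to 2.40% of the counts of a library, so that 1 TPM marked a higher level here than in libraries without it.

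A gene can give several transcripts by starting at different promoters, by joining different exons, by keeping an intron, or by ending at different sites. Such transcripts can carry the same protein under a different leader, proteins with an exon more or less, or no complete protein. In the peripheral nerve, Schwann cells (SCs) express alternative transcripts of several myelin genes. After a crush, the axons beyond the injury degenerate, SCs leave the myelinating state, and macrophages enter the nerve. A bulk library of the nerve sums all of these cells, so that a changed share within one cell type and a changed mix of cell types cannot be told apart, and neither can fewer cells of a type and less RNA per cell.

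Marker genes gave the measured mix of these nerves. Of 7 SC markers, 6 were lower at 3 dpc, and their summed level was 1850 to 2728 CPM (counts scaled to a fixed library total) in crushed nerves against 31455 to 42747 CPM in the controls. All 8 macrophage markers were higher, with a sum of 509 to 1328 CPM against 79.5 to 152 CPM. Of 5 neutrophil markers 2 rose, and the sums were 39.0 to 61.3 CPM against 20.2 to 41.2 CPM. Cxcr2 of this list went the other way without being called, at 14.4 to 17.4 CPM in crushed and 19.2 to 40.0 CPM in control nerves. Of 4 endothelial markers 1 rose, while Kdr was lower without being called, at 18.2 to 23.1 CPM in crushed and 25.8 to 34.8 CPM in control nerves. Cldn5, also not called, was at 8.81 to 10.1 CPM in crushed and 9.52 to 23.8 CPM in control nerves. Pecam1, not called either, was at 60.0 to 84.4 CPM and 51.0 to 64.0 CPM. None of 4 fibroblast markers passed the test (1791 to 2286 CPM against 2407 to 3321 CPM). The T cell and skeletal muscle markers summed to at most 2.60 CPM in any library. Of 4 adipocyte markers 1 rose, with sums of 1.14 to 9.05 CPM in crushed and 0.302 to 1.73 CPM in control nerves. Trac was at 0 in 8, Ckm in 3 and Adipoq in 3 of 11 libraries. The part of this mix in the usage differences below was not tested.

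Transcript usage differed between crushed and control nerves in 175 of the 1303 genes (13.4%). A transcript was called when its share of the gene's counts differed by at least 10 percentage points and its adjusted p in edgeR was at most 0.05. This test sets a transcript's fold change against that of all tested transcripts of its gene together, itself included. The gene as a whole also had to pass at an adjusted p of at most 0.05. By this rule 228 of 3252 transcripts (7.01%) were called, 115 with a raised share (3.54%) and 113 with a lowered share (3.47%). In 50 genes both a raised and a lowered transcript were called. Without the minimum of 10 points, 376 transcripts had an adjusted p of at most 0.05, and 719 had an unadjusted p under 0.05. The number of genes depended on the test: 336 to 384 were called by voom, DESeq2, an edgeR fit with the gene total as offset or limma on logit shares, and 160 to 171 of the 175 genes were among them.

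Shares of a called transcript seldom overlapped between the sides. All 4 crushed libraries lay above or below all 7 control libraries in 194 of the 228 called transcripts (85.1%), against 796 of all 3252 (24.5%). The median size of the difference was 17.5 points among called transcripts, which the rule itself raises, and 3.73 points among all tested. All 228 called transcripts differed in the same direction from the contralateral nerves alone and from the uncrushed nerves alone. Of them 205 (89.9%) had an edgeR adjusted p of at most 0.05 against the 4 contralateral libraries and 132 (57.9%) against the 3 uncrushed libraries. The same libraries picked these transcripts, so that the shared direction was largely fixed by the selection and these counts are no independent check.

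**Figure D1:**
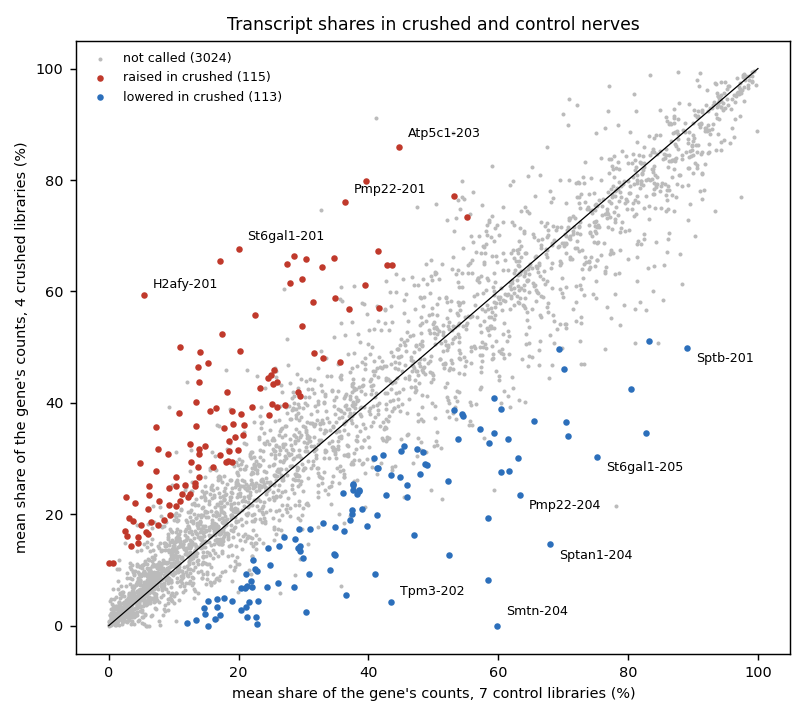
Each point is 1 of 3252 transcripts, at its mean share of the gene's counts in the 7 control libraries (x axis, %) and in the 4 crushed libraries (y axis, %), with the line of equal shares. The 115 raised transcripts lie above the line and the 113 lowered ones below it, and Smtn-204 lies on the x axis at 59.8% in control and 0% in crushed nerves.

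No transcript was called between the 2 kinds of control nerve. edgeR called 0 of 3252 transcripts (0%) between contralateral and uncrushed nerves, with 54 at an unadjusted p under 0.05 and 1 at an adjusted p of at most 0.05 but under 10 points. limma voom and limma on logit shares also called 0. The median difference between the 2 kinds of control was 1.65 points over all transcripts, and 2.74 points over the 228 transcripts called after crush, with 18.03 points as the largest.

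Among the tested transcripts, the one with the highest mean share was not the same on both sides in 62 of the 175 called genes (35.4%), against 142 of all 1303 (10.9%). In 26 of the 175 called genes (14.9%) the same tested transcript led in every crushed library and a different transcript in every control library. Of all 1303 tested genes, 31 (2.38%) did so. The 62 and the 26 called genes include Gm29609, whose leading transcripts carry the names of other genes, Gtf3c2-201 in crushed and Mpv17-201 in control nerves. Untested transcripts were left out of this ranking and led in places, as H2afy-202 did in the control nerves and Smtn-203 in crushed replicate 4. The plots of single genes show such exchanges for Sptan1, Pmp22 and St6gal1. In the following, values for crushed, contralateral and uncrushed nerves are given in the order of the replicate numbers, means are given with the SD over 4 crushed and 7 control libraries, and p-values are those of edgeR's quasi-likelihood fit of transcript usage, with the Benjamini-Hochberg adjustment run over all 3252 transcripts. For each called gene whose shares are given below, the crushed and control shares of its largest called transcript did not overlap, as the naming rule required. The exact two-sided permutation test then gives p = 0.00606, the smallest that 330 choices of 4 from 11 libraries allow. This value was fixed by the selection and adds no support.

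**Figure D2:**
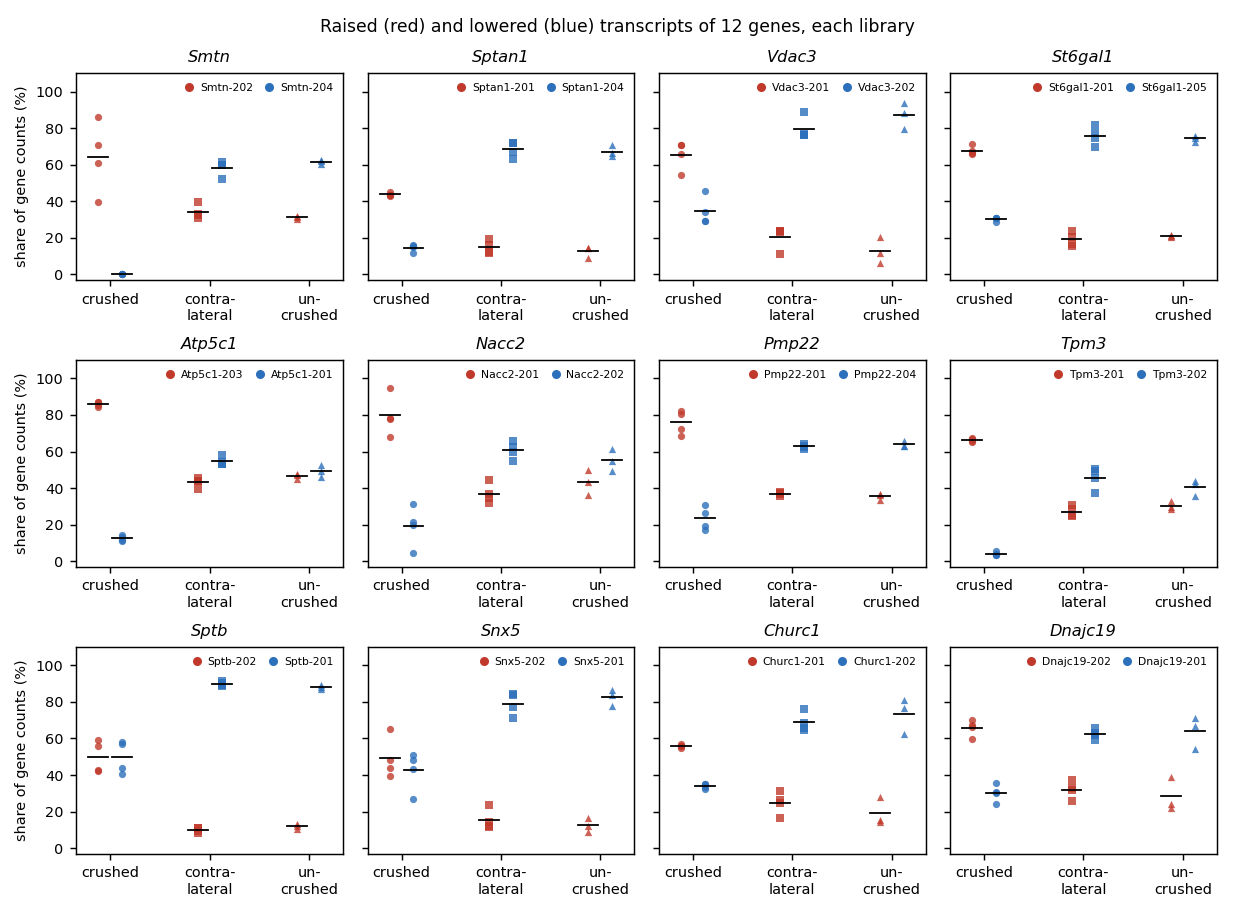
Share of the gene's counts (%, y axis) of a raised (red) and a lowered (blue) transcript in each library of 12 genes, by group (x axis), with 4 crushed, 4 contralateral and 3 uncrushed libraries and a bar at each group mean. The red and blue points change places between crushed and control nerves in Sptan1, Vdac3, St6gal1, Pmp22, Churc1 and Dnajc19, and in Smtn the blue points fall to 0.

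Among myelin and node proteins, 5 of 21 tested genes were called (Dag1, Dlg1, Pmp22, Prx and Sptan1), against 13.4% of all genes. The median of the largest share difference per gene was 8.70 points, against 6.44 points over all tested genes. Pmp22 (chr11:63128982-63159547 in GRCm38, plus strand) codes for a tetraspan protein of compact myelin. Its transcript Pmp22-204 took 30.9, 26.6, 19.4 and 17.1% of the counts in crushed nerves, 64.2, 63.0, 61.6 and 62.4% in contralateral and 65.7, 62.9 and 63.3% in uncrushed nerves. Its share fell from 63.3% ± 1.32 to 23.5% ± 6.38 (edgeR adjusted p = 8.88e-06). Pmp22-201 rose from 36.3% ± 1.38 to 76.0% ± 6.39 (edgeR adjusted p = 0.000119). The control libraries lay within a few points of each other, and every crushed library lay far outside their range. Both transcripts hold the same 160-codon coding sequence and differ in their first exon, that of Pmp22-204 starting 2530 bases upstream. The gene as a whole fell by 5.98 ± 0.18 (SE) on the log2 scale, so that the raised share of Pmp22-201 was a larger part of a much lower total.

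Prx (chr7:27499324-27520214, plus strand) codes for periaxin, a protein of the SC membrane that links it to the cytoskeleton, in a long and a short form. The short-form transcript Prx-203 (148 residues) reads through the last intron of Prx-202 (1391 residues) to an early stop. Its own coding bases, chr7:27515448-27515513, are shown here because they are all that sets its protein end apart.
Prx-203: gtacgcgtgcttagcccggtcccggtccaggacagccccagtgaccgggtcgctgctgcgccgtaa
Prx-203 took 38.4, 35.7, 53.5 and 29.5% in crushed nerves, 24.9 to 27.0% in contralateral and 24.9 to 27.5% in uncrushed nerves. Its share rose from 25.9% ± 1.13 to 39.3% ± 10.2 (edgeR adjusted p = 0.0114), while Prx-202 was at 72.7% ± 1.49 and 55.4% ± 6.35 (edgeR adjusted p = 0.276). Crushed replicate 3 was the highest, and without it the difference was 8.62 points (edgeR adjusted p = 0.0701), past neither limit. The call of Prx-203 was also lost against contralateral nerves alone (edgeR adjusted p = 0.0628), against uncrushed nerves alone (0.226) and with transcripts from 0.1 TPM on (0.568), whereas Prx-202 passed in all 5 other tests run (voom, DESeq2, edgeR with the gene total as offset, and limma on logit shares of counts and of TPM). The whole gene fell by 5.59 ± 0.18 (SE) on the log2 scale.

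Spectrins form the membrane skeleton under the axonal and glial membranes. Sptan1 (chr2:29965560-30031451, plus strand), the alpha chain, was divided among 3 transcripts that differ in short coding exons. The exons are shown because the transcripts differ by them in frame: Sptan1-204 holds the 15-base exon alone, Sptan1-203 holds both and Sptan1-201 holds neither. The positions are chr2:30014158-30014172 and chr2:30001100-30001159.
Sptan1 15-base exon: ctttccaagctgttg
Sptan1 60-base exon: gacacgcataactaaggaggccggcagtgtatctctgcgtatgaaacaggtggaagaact
Sptan1-204 took 15.7, 11.7, 14.9 and 15.9% in crushed nerves, 63.2, 71.8, 67.2 and 72.0% in contralateral and 66.2, 70.6 and 64.6% in uncrushed nerves, a fall from 67.9% ± 3.56 to 14.6% ± 1.96 (edgeR adjusted p = 7.38e-12). Sptan1-201 rose from 13.9% ± 3.39 to 43.7% ± 1.011 (edgeR adjusted p = 1.25e-09). Sptan1-203 rose from 15.6% ± 2.14 to 38.6% ± 1.96 (edgeR adjusted p = 3.17e-07). Summed over all listed transcripts, those with the 15-base exon made up 54.9% ± 1.08 of the crushed counts and 85.7% ± 3.47 of the control counts, and those with the 60-base exon 39.8% ± 1.90 and 15.9% ± 2.17. These exon sums were chosen after the shares were seen and carry no test. Sptb (chr12:76580488-76710547, minus strand), a beta chain, has transcripts with different ends. Sptb-202 (2137 residues), which ends earlier, took 43.0, 42.1, 59.3 and 56.0% in crushed nerves and 8.56 to 13.2% in the 7 controls, a rise from 10.9% ± 1.52 to 50.1% ± 8.85 (edgeR adjusted p = 5.20e-11). Sptb-201 (2329 residues), whose last exons lie 15642 bases further on, fell from 89.1% ± 1.51 to 49.9% ± 8.85 (edgeR adjusted p = 3.76e-05). Gene levels fell by 1.42 ± 0.09 (Sptan1) and 4.62 ± 0.13 (Sptb) on the log2 scale (SE).

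**Figure D3:**
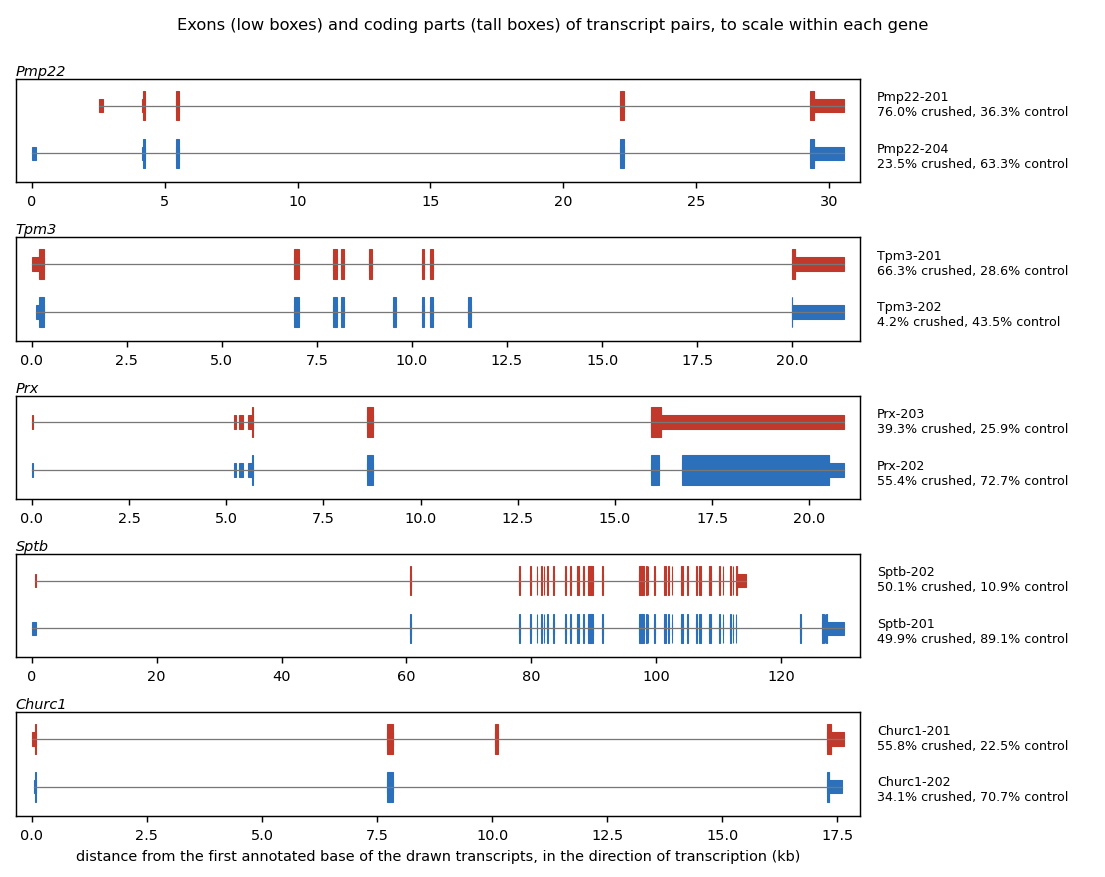
Exons (low boxes) and coding parts (tall boxes) of a raised transcript (red) and a transcript with a lower share (blue) of Pmp22, Tpm3, Prx, Sptb and Churc1, against the distance in kb from the first base drawn, in the direction of transcription. The Pmp22 pair differs in the first exon, the Tpm3 pair in an inner exon and the end of the coding part, Prx-203 in a kept last intron, the Sptb pair in the last exons, and Churc1-202 lacks 1 inner exon.

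Other myelin and node genes had smaller differences. Dlg1, a scaffold of membrane junctions, had a transcript without an annotated coding sequence, Dlg1-213, that fell from 15.2% ± 3.09 to 4.51% ± 1.03 (edgeR adjusted p = 6.94e-06), and its other tested transcripts did not pass. Mbp, a main protein of compact myelin, fell by 4.04 ± 0.14 (SE) on the log2 scale as a gene, and no Mbp transcript was called by the main test. Mbp-204 was at 11.7, 11.3, 9.28 and 7.44% in crushed and 17.9 to 20.4% in control nerves, a difference of −9.34 points (edgeR adjusted p = 0.0996). Its adjusted p was 0.0137 by voom, at most 0.000162 in the other 4 tests and 3.87e-05 by edgeR against contralateral nerves alone, at a difference under 10 points throughout. Nfasc, whose products sit at nodes and paranodes, kept close shares, with Nfasc-202 at 51.0% ± 3.24 in crushed and 51.7% ± 1.59 in control nerves (edgeR adjusted p of 1). Mag and Ncam1 did not have 2 transcripts at 1 TPM and were not tested.

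Genes of actin filaments, tropomyosins and endocytosis had 7 of 22 tested genes called (among them Actn4, Sept8, Sept9, Svil, Tpm1 and Tpm3), 31.8% against 13.4% of all genes, with 6 raised and 6 lowered transcripts and a median largest difference of 7.17 points against 6.44 over all genes. Smtn, outside this list, codes for smoothelin, an actin-binding protein of contractile smooth muscle, and had the largest difference of the named genes. Smtn-204 (946 residues) took 59.7, 60.0, 52.3 and 61.4% in contralateral and 60.4, 62.5 and 62.3% in uncrushed nerves and was estimated at 0 in all 4 crushed libraries (edgeR adjusted p = 1.24e-17). The crushed libraries held 1666 counts of Smtn in all, so that a count of 0 allows a share of up to 0.180%, for counting error only. Smtn-202 (921 residues), which starts 1894 bases away, took 70.9, 86.3, 60.9 and 39.6% in crushed and 30.6 to 39.5% in control nerves (edgeR adjusted p = 1.69e-09), the lowest crushed library touching the highest control. Smtn-203, below 1 TPM and untested, took 18.5, 6.05, 31.5 and 49.1% in crushed nerves and 0% in every control. The gene fell by 3.88 ± 0.12 (SE) on the log2 scale.

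Tropomyosins lie along the actin filament and carry a pair of inner exons of which a transcript uses 1. In Tpm3 (chr3:90072649-90100902, plus strand) the raised Tpm3-201 and the lowered Tpm3-202 use different exons of this pair, at chr3:90088401-90088476 and chr3:90089048-90089123, and both code for 248 residues. The exons are printed for comparison of the exchanged stretches, which are of equal length.
Exon of Tpm3-201: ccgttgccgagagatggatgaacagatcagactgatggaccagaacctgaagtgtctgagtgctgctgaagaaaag
Exon of Tpm3-202: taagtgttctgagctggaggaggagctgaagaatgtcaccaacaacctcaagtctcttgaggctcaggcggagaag
Tpm3-202 took 5.43, 3.61, 4.07 and 3.62% in crushed nerves, 45.7, 50.6, 49.3 and 37.2% in contralateral and 43.8, 42.3 and 35.8% in uncrushed nerves, a fall from 43.5% ± 5.60 to 4.18% ± 0.855 (edgeR adjusted p = 1.14e-12). Tpm3-201 rose from 28.6% ± 2.97 to 66.3% ± 0.925 (edgeR adjusted p = 0.000222). Over all listed Tpm3 transcripts, those with the exon of Tpm3-201 made up 78.0% ± 0.272 of crushed and 32.4% ± 3.14 of control counts, and those with the exon of Tpm3-202 18.8% ± 1.31 and 66.5% ± 3.50. The gene level differed by 0.98 ± 0.07 (SE) on the log2 scale, just under the 2-fold limit.

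Tpm1 (chr9:67022590-67049406, minus strand) exchanged its last exon. Tpm1-211 (248 residues) took 46.4, 51.5, 48.1 and 51.3% in crushed and 14.1 to 28.7% in control nerves, a rise from 20.2% ± 4.40 to 49.3% ± 2.48 (edgeR adjusted p = 4.40e-12). Tpm1-206 (251 residues) fell from 39.0% ± 3.21 to 21.01% ± 3.69 (edgeR adjusted p = 4.55e-06). The coding bases of each end, at chr9:67023359-67023441 and chr9:67028076-67028167, show the 2 different C-terminal stretches.
End of Tpm1-211: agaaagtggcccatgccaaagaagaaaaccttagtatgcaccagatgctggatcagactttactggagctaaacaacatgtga
End of Tpm1-206: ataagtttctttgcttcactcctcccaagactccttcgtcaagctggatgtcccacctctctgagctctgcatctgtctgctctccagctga
Of the inner exon pair of Tpm1, the exon used more was at 88.2% ± 1.09 in crushed and 83.3% ± 2.48 in control nerves. The gene itself rose by 1.98 ± 0.09 (SE) on the log2 scale.

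Sept9, a septin that assembles with other septins into filaments, has several starts. Sept9-205 (565 residues) took 35.7, 33.7, 27.3 and 30.0% in crushed and 4.62 to 11.3% in control nerves (edgeR adjusted p = 5.29e-14), and Sept9-204 (334 residues), which starts 100060 bases away, took 6.70 to 11.4% and 36.5 to 44.3% (edgeR adjusted p = 6.33e-13). Neither set of shares overlapped. Svil-202, annotated for nonsense-mediated decay and coming from the gene of the actin-binding protein supervillin, fell from 30.4% ± 2.77 to 2.42% ± 2.52 (edgeR adjusted p = 4.00e-05). Clta, a clathrin light chain, had no called transcript, with Clta-206 at 92.6% ± 0.659 and 90.1% ± 3.67 (edgeR adjusted p of 1).

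Matrix and adhesion genes had 1 of 15 tested genes called, Fn1 (6.67% against 13.4% of all genes), and a median largest difference of 3.79 points against 6.44 over all genes. Fn1 (chr1:71585520-71653200, minus strand) codes for fibronectin, whose pre-mRNA carries the known alternative exons extra domain B (273 bases, chr1:71613763-71614035) and extra domain A (270 bases, chr1:71603660-71603929). Fn1-201, which holds both, took 18.2, 16.7, 19.4 and 17.9% in crushed and 4.39 to 9.79% in control nerves, a rise from 7.54% ± 2.01 to 18.1% ± 1.12 (edgeR adjusted p = 0.000403). Against the 3 uncrushed nerves alone the difference was 8.75 points (edgeR adjusted p = 0.117). The exons are printed on the transcribed strand.
Extra domain B: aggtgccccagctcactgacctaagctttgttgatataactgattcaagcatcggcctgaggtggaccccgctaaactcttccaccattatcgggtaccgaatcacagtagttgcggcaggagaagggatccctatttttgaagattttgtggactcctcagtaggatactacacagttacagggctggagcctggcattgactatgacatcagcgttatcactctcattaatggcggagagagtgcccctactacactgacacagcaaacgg
Extra domain A: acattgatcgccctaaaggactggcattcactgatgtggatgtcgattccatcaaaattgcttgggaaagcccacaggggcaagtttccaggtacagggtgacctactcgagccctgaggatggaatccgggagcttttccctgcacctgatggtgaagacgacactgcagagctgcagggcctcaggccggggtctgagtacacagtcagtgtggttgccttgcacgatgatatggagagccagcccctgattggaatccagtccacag
Transcripts with extra domain B made up 21.2, 18.6, 21.7 and 19.8% of the crushed counts that hold or skip it and 4.88 to 10.96% in controls. Those with extra domain A made up 48.3% ± 2.51 and 31.7% ± 3.33, again without overlap and, as sums chosen after the shares were seen, without a test. Fn1-203, under 1 TPM and untested, was at 0.276% ± 0.477 in crushed and 18.6% ± 9.92 in control nerves. The whole gene rose by 2.60 ± 0.12 (SE) on the log2 scale. Cd44, the hyaluronan receptor, rose more as a gene (4.24 ± 0.10, SE, on the log2 scale) without a called transcript, and its leading Cd44-203 was at 40.3% ± 1.51 and 38.3% ± 5.23. Itga6-201, of an integrin alpha chain, was at 78.3% ± 0.986 and 78.5% ± 0.441 (edgeR adjusted p of 1). Tnc and Vcan did not have 2 transcripts at 1 TPM.

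Among growth factors, receptors and kinases, 2 of 13 tested genes were called (15.4% against 13.4% of all genes), among them Gfra1. Gfra1 (chr19:58235604-58455909, minus strand), a receptor chain for GDNF, differs between transcripts by a 15-base coding exon at chr19:58392573-58392587.
Gfra1 exon: atgttttccagcaag
Gfra1-201, with the exon, took 31.6, 29.0, 25.3 and 28.4% in crushed nerves, 12.6, 24.9, 2.27 and 19.2% in contralateral and 18.1, 7.19 and 11.9% in uncrushed nerves. Its mean rose from 13.7% ± 7.66 to 28.5% ± 2.58 (edgeR adjusted p = 0.00661). The control libraries were wide apart and the lowest crushed library was near the highest control. The call was lost against contralateral nerves alone (edgeR adjusted p = 0.0635), with the gene total as offset (edgeR adjusted p = 0.0698), and by limma on logit shares of counts (adjusted p = 0.0593) and of TPM (9.61 points, adjusted p = 0.131). Gfra1-203 had the larger difference, from 86.0% ± 7.71 to 67.1% ± 2.68, which missed the main test (edgeR adjusted p = 0.470) and passed in all 5 others. As a gene Gfra1 rose by 2.69 ± 0.08 (SE) on the log2 scale.

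**Figure D4:**
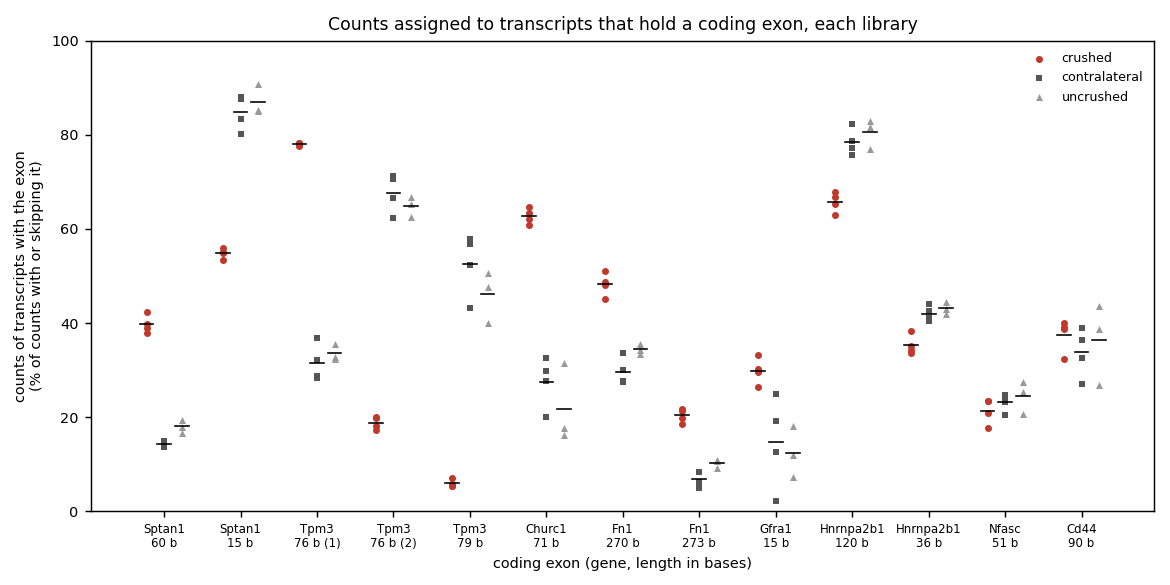
Counts assigned to transcripts that hold a coding exon, as a percentage of the counts of transcripts that hold or skip it (y axis), for each library and 13 exons (x axis, gene and length in bases), with bars at group means. Crushed and control points do not overlap except for the Nfasc and Cd44 exons, and the 15-base exon of Sptan1 falls from 85.7 to 54.9%.

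Several genes of mitochondria and metabolism exchanged transcripts that differ in their coding sequence. Vdac3 (chr8:22577075-22593813, minus strand), a channel of the outer mitochondrial membrane, has transcripts of 283 and 284 codons that differ in the coding sequence by 3 bases, in capitals here at the end of the 53-base exon of Vdac3-202 (chr8:22587550-22587602).
Vdac3-202: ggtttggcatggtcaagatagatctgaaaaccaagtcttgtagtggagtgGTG
Vdac3-201, without them, took 54.6, 70.6, 65.7 and 70.9% in crushed nerves, 23.2, 23.6, 11.1 and 24.0% in contralateral and 6.15, 11.9 and 20.3% in uncrushed nerves, a rise from 17.2% ± 7.31 to 65.5% ± 7.62 (edgeR adjusted p = 8.88e-06). Vdac3-202 fell from 82.8% ± 7.31 to 34.5% ± 7.62 (edgeR adjusted p = 0.000341). Few reads can separate these transcripts, and how surely the estimates divide them is not in the deposited values.

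Atp5c1 (chr2:10056016-10080510, minus strand) codes for the gamma subunit of ATP synthase, and its transcripts end their coding sequence in different exons. The last 30 coding bases of each are shown, with the bases not shared in capitals. Both stretches span an intron, from chr2:10056800-10059018 and chr2:10056158-10059021.
Atp5c1-203: atcatctctggggctgctgctctGGATTAA
Atp5c1-201: gaaatcatctctggggctgctgctctGTAA
Atp5c1-203 took 85.6, 87.1, 87.0 and 84.4% in crushed and 39.4 to 47.7% in control nerves, a rise from 44.7% ± 2.81 to 86.0% ± 1.31 (edgeR adjusted p = 1.40e-05). Atp5c1-201 fell from 52.4% ± 3.86 to 12.7% ± 1.44 (edgeR adjusted p = 1.60e-11). Dnajc19, a J-domain protein of the inner mitochondrial membrane, raised Dnajc19-202 (116 residues) from 30.3% ± 6.60 to 65.9% ± 4.37 (edgeR adjusted p = 0.00255). Dnajc19-201 (157 residues) fell from 63.1% ± 5.59 to 30.1% ± 4.62 (edgeR adjusted p = 0.00189). None of these 3 genes passed the 2-fold limit as a gene, with log2 fold changes of 0.67 ± 0.07 (Vdac3), 0.63 ± 0.08 (Atp5c1) and 0.03 ± 0.10 (Dnajc19).

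Metabolic enzymes had 3 of 8 tested genes called (37.5% against 13.4% of all genes), each by a lowered transcript in the main test. Aldoa-203, 1 of several starts of the glycolytic enzyme aldolase A that share its coding sequence, fell from 20.4% ± 3.25 to 2.81% ± 1.07 (edgeR adjusted p = 1.09e-12) at a gene level that differed by −0.18 ± 0.08 (SE) on the log2 scale. Atp2a2-202 (998 residues), of the calcium pump of the endoplasmic reticulum, fell from 31.0% ± 4.01 to 17.4% ± 2.70 (edgeR adjusted p = 0.00146), while Atp2a2-201 (1044 residues) was at 74.0% ± 1.82 and 55.7% ± 5.51 (edgeR adjusted p = 0.183). Agpat3-211, of a phospholipid acyltransferase, fell from 37.7% ± 2.66 to 25.2% ± 3.85 (edgeR adjusted p = 0.0274). The adjusted p of Agpat3-211 was 0.110, 0.0528 and 0.121 without crushed replicates 2, 3 and 4. The higher shares of Atp2a2-201, Aldoa-201 (77.2% ± 4.77 against 65.6% ± 3.49) and Agpat3-202 (39.1% ± 1.72 against 29.9% ± 2.24) missed the main test and had an adjusted p of at most 0.05 in 5, 4 and 5 of the 5 other tests. Pkm did not have 2 transcripts at 1 TPM.

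The sialyltransferase St6gal1 (chr16:23224740-23360350, plus strand) and the sorting nexin Snx5, an endosomal coat protein, exchanged first exons around the same coding sequence. St6gal1-201 took 67.3, 65.6, 71.2 and 66.6% in crushed nerves, 15.6, 20.6, 16.9 and 23.8% in contralateral and 20.7, 20.96 and 21.4% in uncrushed nerves, a rise from 19.99% ± 2.82 to 67.7% ± 2.44 (edgeR adjusted p = 4.40e-12). St6gal1-205, which starts 1281 bases away and codes for the same 403 residues, fell from 75.2% ± 3.75 to 30.3% ± 1.005 (edgeR adjusted p = 8.50e-11). Snx5-202 rose from 14.1% ± 4.74 to 49.1% ± 11.3 (edgeR adjusted p = 4.09e-06) and Snx5-201 fell from 80.5% ± 5.42 to 42.5% ± 10.8 (edgeR adjusted p = 0.00203), with starts 334 bases apart. Nacc2, a BTB-domain transcriptional repressor, has starts 30641 bases apart. Nacc2-201 took 94.6, 68.1, 78.0 and 78.3% in crushed and 32.2 to 49.9% in control nerves (edgeR adjusted p = 0.00690), a call lost against uncrushed nerves alone (edgeR adjusted p = 0.236).

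Of transcription and chromatin regulators, 1 of 10 tested genes was called (10% against 13.4% of all genes). H2afy (macroH2A1), a histone variant whose splice forms differ by an exon of the macro domain, showed the largest rise of a single share among the named genes. H2afy-201 took 54.9, 63.9, 57.8 and 60.9% in crushed nerves, 12.3, 0, 2.45 and 0% in contralateral and 6.84, 9.53 and 6.84% in uncrushed nerves, and its adjusted p by edgeR was 0.0420. H2afy-202, under 1 TPM over the 11 libraries and therefore untested, was at 9.36, 6.06, 3.48 and 5.69% in crushed and 43.8 to 58.5% in control nerves. The exchanged exons lie at chr13:56089758-56089857 and chr13:56088252-56088342.
Exon of H2afy-201: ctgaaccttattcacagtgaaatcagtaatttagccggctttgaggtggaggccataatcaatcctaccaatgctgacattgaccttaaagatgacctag
Exon of H2afy-202: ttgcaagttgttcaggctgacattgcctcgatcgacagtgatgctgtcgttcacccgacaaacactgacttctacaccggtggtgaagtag
The test sets H2afy-201 against H2afy-201 and H2afy-204 together, without the untested transcripts. The edgeR adjusted p of H2afy-201 ranged from 0.0587 to 0.130 without any 1 crushed library, contralateral replicate 3 or uncrushed replicate 1, with differences of 52.4 to 55.4 points. Churc1 (chr12:76765538-76783180, plus strand), a zinc-binding transcriptional regulator of development, has an alternative 71-base exon (chr12:76775594-76775664).
Churc1 exon: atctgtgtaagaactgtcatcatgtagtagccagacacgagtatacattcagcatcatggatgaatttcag
Churc1-201, with the exon (112 residues), rose from 22.5% ± 6.82 to 55.8% ± 0.776 (edgeR adjusted p = 0.000471). Churc1-202, without it (70 residues), fell from 70.7% ± 7.07 to 34.1% ± 1.28 (edgeR adjusted p = 0.00101). The 4 crushed libraries lay within 3 points of each other for both transcripts.

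Splicing factors had 5 of 32 tested genes called (Hnrnpa2b1, Hnrnpl, Qk, Rbm39 and Sf1), 15.6% against 13.4% of all genes. Qk (chr17:10202601-10319854, minus strand) codes for quaking, an RNA-binding protein needed in myelinating glia, whose transcripts differ in the end of the coding sequence. The coding ends at chr17:10214169-10214194 and chr17:10215431-10215474 are shown.
Qk-202: gtatggctttcccaacgaaaggctaa
Qk-201: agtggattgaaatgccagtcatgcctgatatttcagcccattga
Qk-202 (319 residues) took 33.3, 30.4, 32.5 and 29.5% in crushed nerves, 19.0, 19.9, 20.1 and 17.96% in contralateral and 20.8, 17.1 and 15.2% in uncrushed nerves (edgeR adjusted p = 9.76e-07). Qk-201 (325 residues) held the rest, 68.6% ± 1.74 and 81.4% ± 1.95 (edgeR adjusted p = 0.267, with a pass in all 5 other tests, at most 0.000204), and the gene fell by 1.91 ± 0.11 (SE) on the log2 scale. Hnrnpa2b1-201 (301 residues) rose from 20.7% ± 2.92 to 34.3% ± 2.20 (edgeR adjusted p = 0.000321). The sum of Hnrnpa2b1 transcripts that hold a 120-base exon which Hnrnpa2b1-201 lacks was 65.7% ± 2.20 in crushed and 79.3% ± 2.92 in control nerves. Rbm39-203 fell from 29.4% ± 3.49 to 17.4% ± 1.72 (edgeR adjusted p = 0.00103). Srsf3-201, annotated for nonsense-mediated decay, was at 39.9% ± 4.03 and 28.6% ± 4.91 (edgeR adjusted p = 0.250). The main test called neither Srsf3 nor Tra2b, while Srsf3-201 passed in 4 of the 5 other tests (adjusted p of 0.00113 to 0.0142).

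Transcripts annotated as retained introns were called in both directions. Of 337 tested retained intron transcripts 11 rose and 12 fell, of 146 annotated for nonsense-mediated decay 3 rose and 4 fell, of 352 processed transcripts 7 rose and 12 fell, and of 2340 protein-coding transcripts 91 rose and 82 fell. The retained intron shares, 3.26% raised and 3.56% lowered, stood beside 3.54% and 3.47% of all 3252 transcripts. Decay transcripts were at 2.05% and 2.74%, processed transcripts at 1.99% and 3.41% and coding ones at 3.89% and 3.50%. Called or not, 64.7% of retained intron and 69.2% of decay transcripts had a higher mean share in crushed nerves. Of processed transcripts 61.4% did so and of coding ones 53.0%, without a test. Hnrnpl-206, a retained intron transcript of an RNA-binding protein that regulates splicing, fell from 48.7% ± 3.09 to 29.1% ± 2.05 (edgeR adjusted p = 0.00250), and the coding Hnrnpl-202 rose from 19.1% ± 5.23 to 38.5% ± 6.66 (edgeR adjusted p = 0.000542). Ccz1-203, of a factor that activates an endosomal Rab GTPase, took 40.7, 33.6, 29.0 and 42.9% in crushed and 64.9 to 75.8% in control nerves (edgeR adjusted p = 0.000114), and the coding Ccz1-201 rose from 27.9% ± 3.53 to 61.6% ± 5.96 (edgeR adjusted p = 3.00e-05). Psmc2-202, of a proteasome ATPase, fell from 57.1% ± 8.27 to 35.3% ± 2.67 (edgeR adjusted p = 0.00805), and Psmc2-201 rose correspondingly (edgeR adjusted p = 0.0152, and 0.0505 and 0.0520 without crushed replicates 2 and 3). Against contralateral nerves alone the Psmc2 difference was 15.9 points and neither call held (edgeR adjusted p = 0.0807 for Psmc2-202 and 0.145 for Psmc2-201), and neither held with transcripts from 0.1 TPM on (0.0503 and 0.0931). In these 3 genes the retained intron transcript fell and the coding transcript rose at gene-level log2 fold changes (SE) of 0.02 ± 0.09 (Hnrnpl), −0.01 ± 0.09 (Ccz1) and 0.02 ± 0.10 (Psmc2).

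A retained intron transcript rose in Samhd1, which codes for a nucleotide triphosphatase active in myeloid cells. Samhd1-210, a retained intron transcript, took 15.7, 14.7, 19.4 and 17.3% in crushed and 2.48 to 7.49% in control nerves (edgeR adjusted p = 5.16e-07), and the coding Samhd1-203 fell from 61.7% ± 4.05 to 27.8% ± 4.31 (edgeR adjusted p = 0.0372). Without crushed replicate 2, 3 or 4 or contralateral replicate 1 or 4 the adjusted p of Samhd1-203 was 0.0542 to 0.121, and the call was also lost against contralateral nerves (0.0689) or uncrushed nerves alone (0.211) and with the replicate block (0.0704). Further coding transcripts, under 1 TPM and untested, were higher in crushed nerves, with Samhd1-206 at 14.2% ± 4.51 and 2.48% ± 1.72 and Samhd1-201 at 20.3% ± 0.698 and 13.6% ± 1.41. Fxyd3-206, a retained intron transcript of a regulator of the sodium pump, rose from 9.20% ± 5.47 to 30.9% ± 12.1 (edgeR adjusted p = 0.0154), a call lost against either control group alone. Elf2-207, a decay transcript of an ETS factor, fell from 34.6% ± 6.52 to 12.9% ± 2.01 (edgeR adjusted p = 0.00284). This call was lost with transcripts from 0.1 TPM on (edgeR adjusted p = 0.152). The coding Elf2-201, untested, was at 26.2% ± 10.6 in crushed and 8.84% ± 7.91 in control nerves. Elf2-208, an untested decay transcript, was at 1.33% ± 1.54 and 7.82% ± 7.35.

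The classes were also compared over whole libraries. A class share sums counts over many genes, so that gene levels and transcript usage both enter it. The 2 parts were not separated, here or within the sets of genes below. Transcripts annotated for nonsense-mediated decay took 1.25% ± 0.0438 of the counts in crushed and 1.08% ± 0.0672 in control nerves (exact permutation test, adjusted p = 0.0182 over 6 classes). Retained intron transcripts took 3.21% ± 0.114 and 3.01% ± 0.137 (exact permutation, adjusted p = 0.0364), processed transcripts 1.65% ± 0.0260 and 1.60% ± 0.0345 (0.0182) and lincRNAs 7.34% ± 0.451 and 6.44% ± 0.501 (0.0242). Within protein-coding genes alone, an alternative chosen after seeing the data, the adjusted p was 0.473 for retained introns and 0.539 for processed transcripts. Within the 1303 tested genes alone, chosen likewise, retained introns took 6.28% ± 0.130 in crushed and 4.03% ± 0.280 in control nerves, processed transcripts 3.53% ± 0.0884 and 2.59% ± 0.0573, decay transcripts 2.32% ± 0.0673 and 1.70% ± 0.0364, and lincRNAs 7.84% ± 1.44 and 12.5% ± 1.38. Each of these 4 classes had an adjusted p of 0.00909 in the exact permutation test, and the lincRNAs went the other way than over whole libraries. Protein-coding transcripts (62.6% ± 1.66 and 61.4% ± 4.01) and all others (24.0% ± 1.79 and 26.5% ± 3.75) did not pass.

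The raised and lowered transcripts of the 50 genes called in both directions were compared in structure, as a description with no test. First exons lay apart in 19 pairs (38.0%), against 50.6% of the pairs formed by the 2 most abundant transcripts of 1275 tested genes. Last exons lay apart in 18 pairs (36.0% against 44.5%), and 16 pairs differed by a cassette exon (32.0% against 30.3%), in 12 of them a coding one (24.0% against 21.96%). Both transcripts had a coding sequence in 43 pairs, and it was the same in 7 of these (16.3% against 16.6%). Of the called transcripts 59.6% had the best annotation support level and 19.3% the weakest, against 52.5% and 20.8% of all tested.

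Usage changes came with and without a change of the gene's level. At the gene level (2-fold and an adjusted p of at most 0.05 by edgeR) 2292 of 17695 genes rose (13%) and 3357 fell (19%). Of the 175 genes with changed usage 22 rose (12.6%), 45 fell (25.7%) and 108 passed neither limit (61.7%), against 13.6, 17.2 and 69.2% of the 1303 genes tested. Called genes had a median of 1456 counts per library against 1062 for all tested, and the part of this depth in the calls was not tested. Immune genes, of which 4 of 39 listed had 2 transcripts at 1 TPM, gave no called gene, and Ptprc was not among those 4.

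**Figure D5:**
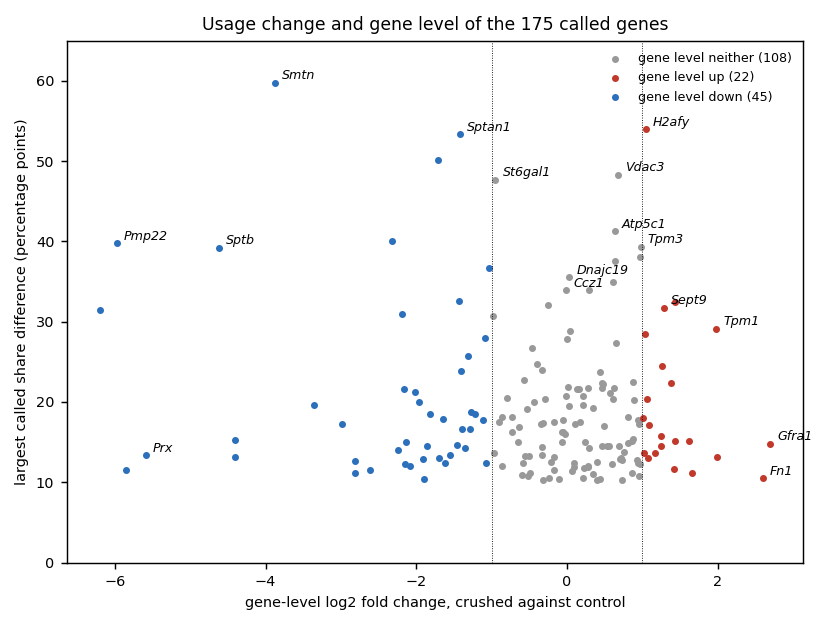
Largest called share difference (percentage points, y axis) against the gene-level log2 fold change between crushed and control nerves (x axis) of the 175 called genes, with dotted lines at the 2-fold limits. The 108 grey genes within or not past the limits include St6gal1, Vdac3, Atp5c1, Dnajc19 and Ccz1, while Pmp22, Prx, Sptb and Smtn fell by 3.88 or more on the log2 scale.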

How the data were processed

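Total RNA of 11 mouse SNs was sequenced. The labels name a SMARTer stranded pico-input kit with removal of ribosomal RNA, while the paper's methods name TruSeq with RiboZero. Trimmomatic served the authors for trimming, STAR for alignment and RSEM for estimating how many reads came from each Ensembl transcript of GRCm38 (Ensembl release not given in the sources used here). The deposited expected counts per transcript are not normalized, and RSEM divides reads that fit several transcripts between them. The uncertainty of that division is not in the values used here. The authors' TPM values, scaled by transcript length and library total, set the filter of 1 TPM and gave 1 alternative. The deposited FPKM values and the 12 libraries of the other experiment of the series were not used.

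Counts were rounded to whole numbers and tested with R 4.3.3 and edgeR 4.0.16 (TMM, glmQLFit, diffSpliceDGE, Simes p per gene, Benjamini-Hochberg adjustment), with limma 3.58.1 and DESeq2 1.42.0 for alternatives. A share is the count of a transcript divided by that of all listed transcripts of its gene. Gene levels used summed counts, filterByExpr and limits of 2-fold and an adjusted p of 0.05. Library shares of transcript classes and single shares were tested by exact two-sided permutation. GENCODE M21 gave structures, biotypes and names for 3206 of the 3252 transcripts, 2950 of them at the same length, and sequences came from its transcripts. Tests were tried on simulated counts first. Per the paper's methods, the crushed, contralateral and uncrushed libraries came from 4, 4 and 3 mice. The paper also took the contralateral nerve of crushed mice, so that crushed and contralateral libraries may come from the same mice. The main fit and the permutation tests took the 11 libraries as independent, so that a shared animal was not accounted for. Detection limits are 3 counts and cover counting error only. No replicate pair was a copy of another. Uncrushed replicate 3 is named by its title.

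The members, gene lists and tests were chosen with earlier results of these data known. Named genes were the 12 called genes with the largest difference and a raised and a lowered coding transcript, 6 with a retained intron or decay transcript, and up to 4 per gene list, all with shares that did not overlap, a mean of at least 200 counts and 50 in every library, besides 20 genes named whatever their result. Alternatives changed the test, share scale, normalization, filters, control group, thresholds and replicate block and left out each library in turn. Those with transcripts of unchanged length, genes of at least 50 counts, class shares within protein-coding or tested genes, and exon sums were chosen after seeing the data. Results for a few genes are not reported here.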

Additional observations from a re-analysis of the deposited data

Results flagged for a closer look

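Of 116 groups of 4 libraries examined, 7 held a library far from the other 3, and about 1 in 20 would by chance. In contralateral replicate 3, Vdac3-201 was at 11.1% (23.2 to 24.0% in the other 3) and Vdac3-202 at 88.9% (76.0 to 76.8%), and these are the same reads divided between 2 transcripts. Samhd1-210 was at 3.21% in contralateral replicate 4, against 6.92 to 7.49% in the others. St6gal1-205 was at 28.8% in crushed replicate 3, against 30.7 to 30.9%. In each of these the library lay on the same side of the other group as its neighbours. Over whole libraries, retained intron transcripts took 3.04% in crushed replicate 2 (3.25 to 3.28% in the others) and 2.77% in contralateral replicate 2 (3.03 to 3.08%). The remaining classes took 21.3% in crushed replicate 3, against 24.8 to 25.0% in the others.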

How the results depend on the processing

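The count of 175 genes (115 raised and 113 lowered transcripts) became 336 (265 and 268) with limma voom, 342 (245 and 267) with the gene total as offset in edgeR, 361 (261 and 279) with DESeq2, 349 (251 and 274) with limma on logit count shares and 384 (273 and 312) on logit TPM shares. Filters gave 24 (11 and 15) at 5 TPM, 368 (242 and 225) at 0.1 TPM, 84 (55 and 56) at 1 TPM on both sides and 100 (71 and 70) with protein-coding transcripts only, where other transcripts are tested. Against uncrushed nerves alone there were 103 (67 and 70), at 20 points 60 (44 and 43), without a minimum difference 281 (190 and 175), and at an adjusted p of 0.01, 76 raised. Leaving out each library in turn gave 133 to 184 genes, 81 to 123 raised and 90 to 117 lowered transcripts, and 0 to 2 transcripts between contralateral and uncrushed nerves (1 without contralateral replicate 3, 2 without uncrushed replicate 1). The causes were not tested.

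The replicate block gave 147 genes over 11 libraries (98 raised, 95 lowered) and 156 with crushed and contralateral nerves only (96 and 100). Same-numbered libraries did not deviate together (mean correlation of shares −0.0322 for crushed and contralateral nerves), so that the numbers were not taken as pairs. Of 52 called transcripts named, 3 and 8 lost the call under these blocks.

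Of 1370 alternative values of these 52 transcripts 1319 kept the call, 51 lost it and 0 reversed. In every setting that tested them, 39 transcripts kept it. A transcript removed by a filter gave no value and was not counted as lost. At 1 TPM on both sides 28 of the 52 kept the call and 0 lost it, and at 5 TPM 7 kept it and 1 lost it. With protein-coding transcripts only 37 kept it and 1 lost it, and at unchanged annotated length 48 and 0. The rest of the 52 were not tested in these settings. Of 580 alternative values of the uncalled named transcripts 57 newly passed the p limit, nearly all under the other 5 tests, and among these transcripts Svil-211 reversed to −12.9 points on TPM shares.

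Library shares of classes were less stable. The difference in protein-coding transcripts (1.18 points) reversed to −1.36 against contralateral nerves and −0.366 within protein-coding genes. That of lincRNAs (0.907) was 1.07 and 0.689 against contralateral and uncrushed nerves, neither past the threshold, and reversed to −0.000420 within protein-coding genes and −4.65 within tested genes. Retained introns gave 0.234 and 0.175, decay transcripts 0.129 and 0.236, and processed transcripts 0.0455 and 0.0586 against the same groups, none past the threshold. With 4 against 3 libraries no exact two-sided p can be below 0.0571. Within protein-coding genes retained introns (0.184) and processed transcripts (0.0336) also missed it, while within tested genes the differences of retained introns (2.26), processed (0.947) and decay transcripts (0.619) were larger and passed. With TPM the others passed at −1.94. Leaving out 1 library gave 0.169 to 0.265 for retained introns, lost in 7 of 11 cases, and 0.789 to 1.13 for lincRNAs, lost without crushed replicate 1, 3 or 4.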

Other observations

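Mag, a myelin adhesion protein with fewer than 2 transcripts at 1 TPM, was outside the tests. Mag-203 took 76.4 to 93.2% of its counts in 10 libraries but 0% in crushed replicate 4, where Mag-201 took 92.7% and in the other libraries 0%. The smallest Mag total of a library was 83.2 counts.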
